A study of Mus musculus with 13 samples.

Results

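The clustered histone genes are the protein-coding genes H1f1 to H1f6 and all genes named H2ac, H2bc, H3c or H4c with a number, which encode the linker histone H1 and the core histones H2A, H2B, H3 and H4. Members were taken by symbol alone, and 63 of the 21887 protein-coding genes of the mouse gene table met the rule. The set itself was chosen with earlier results of these data known. There were 6 H1, 17 H2A, 16 H2B, 12 H3 and 12 H4 genes, of which 53 lie on chromosome 13 and 10 on chromosome 3. Peaks of histone H3 lysine 27 acetylation (H3K27ac) and of the co-repressors NCoR and SMRT were counted where the peak centre lay within 1 kb of either annotated end of a gene.

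Clustered histone genes supply the histones that package newly copied DNA. They have no introns in their main transcripts, are transcribed mainly while DNA is replicated, and their mRNAs end in a stem-loop bound by the protein SLBP instead of a poly(A) tail. Their transcription is gathered in the histone locus body around the factor NPAT, and it is known to follow the cell cycle. H3K27ac is a mark of active promoters and enhancers, and NCoR and SMRT are scaffolds of complexes that hold the histone deacetylase HDAC3.

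The samples were 13 mouse chromatin immunoprecipitation (ChIP-seq) libraries, 1 per group, of which 12 had a peak list and the embryonic stem cell (ESC) input was not analysed here. ESCs were of strain C57BL/6J and were kept in medium with LIF and the inhibitors CHIR99021 and PD0325901. Mouse embryonic fibroblasts (MEFs) were of strain C57BL/6J-OG2, and all OSKM cultures were such MEFs transduced with virus for OSKM (the reprogramming factors Pou5f1, Sox2, Klf4 and Myc), so they are mixed cultures in which not every cell need carry each factor. Co-repressor peaks come from ESCs and day 9 OSKM cells, without MEFs. H3K27ac peaks come from ESCs, MEFs and OSKM cells of days 5, 9 and 13, each with either FLAG as the control or HDAC3-YF, which is HDAC3 mutated so that it lacks deacetylase activity. With 1 library a group, no difference between conditions could be tested, and every count below describes these libraries. A smaller share of cells with a peak and a weaker mark in each cell cannot be told apart.

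The H3K27ac lists held between 14251 and 26591 peaks, and read depth is unknown. Among 10 markers of pluripotent cells, 7 had an H3K27ac peak in ESCs and 2 in MEFs, while of 10 fibroblast markers 1 had a peak in ESCs and 8 in MEFs. The 6 OSKM libraries had peaks at 2 to 4 of the pluripotent and 2 to 5 of the fibroblast markers. All H3K27ac and co-repressor intervals were 200 bp wide. The H3K27ac score stops at 200 and no source gives its scale, so scores are used only to place a peak within its own list.

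In ESCs, 41 of the 63 genes (65.1%) had an H3K27ac peak, against 48.6% of all protein-coding genes. In MEFs 36 genes (57.1%) had one, against 48.2% of all genes. OSKM cultures with FLAG had peaks at 34 genes at day 5 (54.0%, all genes 42.2%), at 25 genes at day 9 (39.7%, all genes 43.1%) and at 12 genes at day 13 (19.0%, all genes 42.6%). In the HDAC3-YF arm of the OSKM cultures peaks lay at 36 genes at day 5 (57.1%, all genes 40.8%), at 33 genes at day 9 (52.4%, all genes 42.1%) and at 17 genes at day 13 (all genes 43.9%). With this window and the full lists, the histone genes were above the share of all genes in ESCs, MEFs and both day 5 cultures and below it in both day 13 cultures, while all genes stayed between 40.8% and 43.9% in the OSKM libraries. The excess in ESCs, MEFs and the day 5 cultures turned with some of the settings. At day 5 it turned only with the 50% highest-scoring peaks. Within 0.5 kb the day 5 share was 36.5% with FLAG and with the mutant (all genes 35.5% and 33.8%). With 14251 peaks from each list it was 50.8% and 49.2% (all genes 41.2% and 38.9%). In ESCs and MEFs it turned with 3 settings, and stayed within 2.5 kb and, narrowly, around starts only. Within 0.5 kb the share was 38.1% in ESCs (all genes 40.9%) and 38.1% in MEFs (all genes 40.1%). With the 50% highest-scoring peaks of each list it was 36.5% in ESCs (all genes 38.9%), 23.8% in MEFs (40.8%), and 22.2% and 25.4% in the day 5 FLAG and mutant cultures (30.8% and 30.5%). With 14251 peaks from each list it was 39.7% in ESCs (all genes 40.8%) and 23.8% in MEFs (41.7%). In both day 13 cultures the histone genes stayed below all genes with each of these settings, within 2.5 kb and around starts only.

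**Figure D1:**
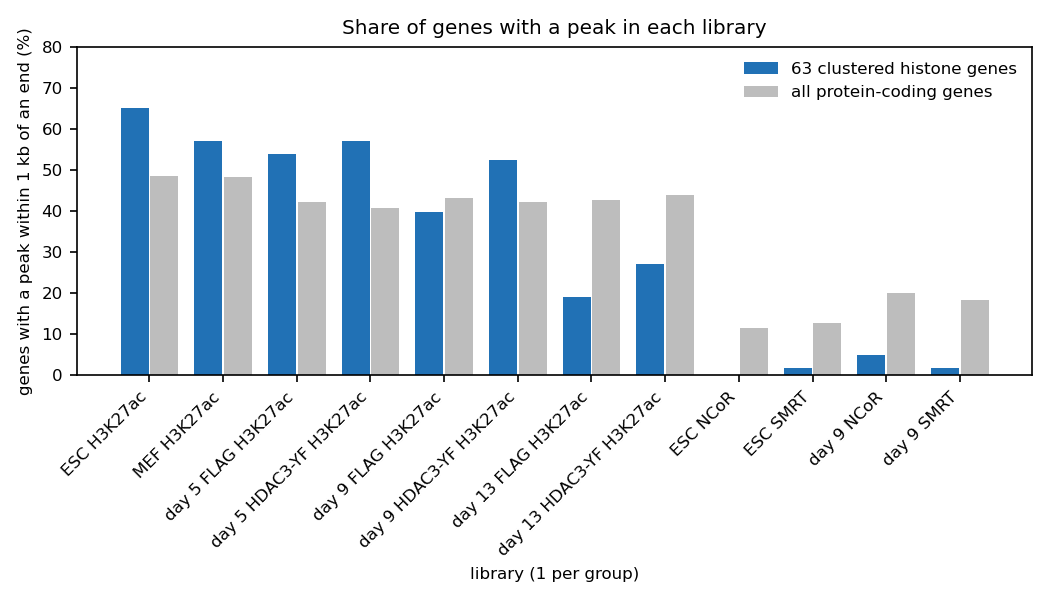
Bars give the share of genes with a peak within 1 kb of a gene end (%), for the 63 clustered histone genes and for all protein-coding genes, in each of the 12 peak lists. In H3K27ac, with this window and the full lists, the histone genes lie above all genes in ESCs and MEFs (not within 0.5 kb or with higher score limits) and below them in the day 13 FLAG and HDAC3-YF cultures (12 and 17 of 63 genes), where all genes are at 42.6% and 43.9%, and their co-repressor bars lie below those of all genes.

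The genes lie close together, so 1 peak can be counted for several of them. The 41 genes with a peak in ESCs shared 30 different peaks, and the 12 genes of the day 13 FLAG culture shared 9. Of the 8 libraries, the number of peaks counted for 2 or more histone genes was highest in ESCs, at 11, and lowest in the day 13 FLAG culture, at 3.

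Over the 8 H3K27ac libraries, 8 genes had a peak in each library and 12 genes in none. The share with a peak in every library was 12.7% among the histone genes and 32.7% among all genes, and the share with a peak in none was 19.0% and 42.9%. The histone genes were therefore found more often between these extremes, with 43 of 63 genes marked in some libraries and not in others. The 8 genes marked in every library were H2ac20, H2ac21, H2ac18 and H4c14 on chromosome 3 and H1f5, H1f3, H1f2 and H2bc3 on chromosome 13. H2ac20 and H2ac21 shared a peak in each library. Within 0.5 kb, H2ac18 was marked in 3 libraries, H2ac20 in 5 and H2bc3 in 7, and the other genes stayed at 8.

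**Figure D2:**
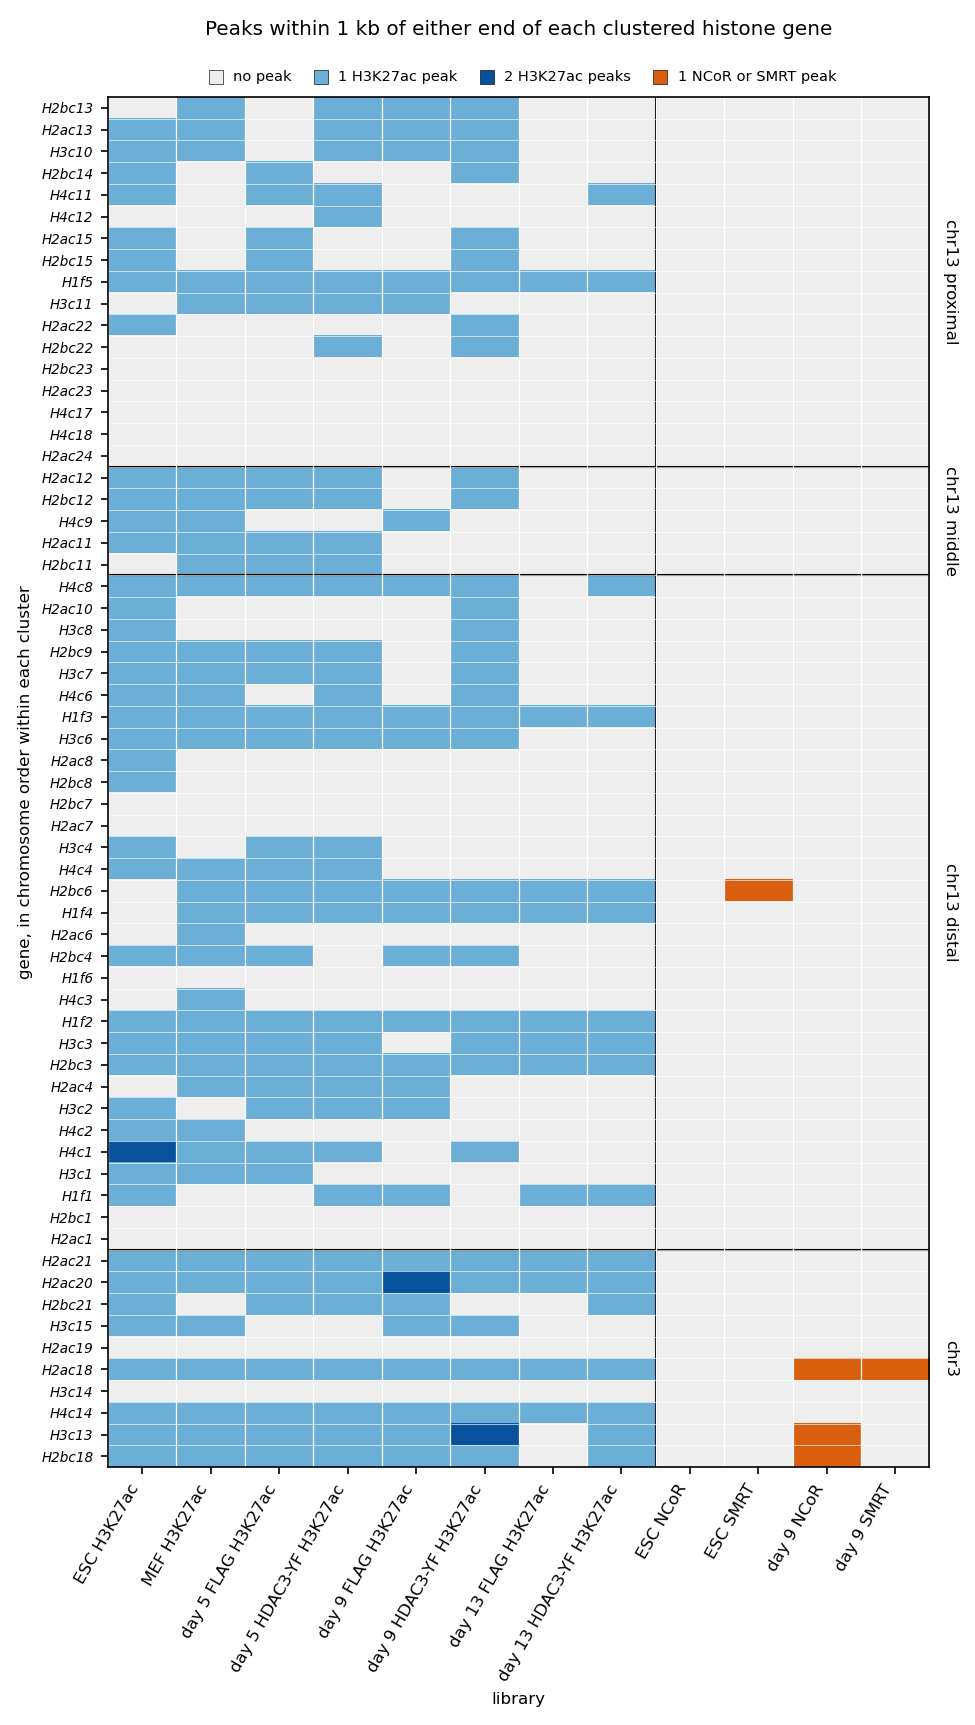
Number of peaks within 1 kb of either end of each of the 63 clustered histone genes (rows, by cluster in chromosome order) in each of the 12 peak lists (columns). Pale cells hold no peak, and the columns of day 13 are emptier than those of ESCs, MEFs and day 5 apart from the H1 genes and, in the HDAC3-YF culture, the chromosome 3 cluster.

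Most linker histone genes had an H3K27ac peak at day 13. H1 proteins bind DNA where it enters and leaves the nucleosome, and H1f1 to H1f5 encode the forms of dividing somatic cells while H1f6 encodes a testis form. Of the 6 H1 genes, 4 had an H3K27ac peak in ESCs, in MEFs, in the day 5 FLAG culture and in the day 9 HDAC3-YF culture, and 5 had one in the day 5 HDAC3-YF, the day 9 FLAG and both day 13 cultures. Of the 57 core histone genes, 37 had a peak in ESCs and 32 in MEFs. The FLAG arm had 30 marked core genes at day 5, 20 at day 9 and 7 at day 13, and the HDAC3-YF arm had 31, 29 and 12. Both day 13 libraries thus held peaks at all H1 genes except H1f6, beside 7 or 12 of 57 core genes.

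H1f2, H1f3 and H1f5 had an H3K27ac peak in each of the 8 libraries. The H1f2 gene lies at chr13:23738807-23739531 (mm10, plus strand), and its peak scored 60.6 in the day 13 FLAG list, where the median peak scored 15.7. The H1f5 peak scored 43.4 in that list and the H1f3 peak 21.9, also above the median. All 3 peaks were at the ceiling of 200 in ESCs, a score reached by 24.4% of that list.

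H1f4 had a peak in MEFs and in all 6 OSKM libraries and none in ESCs. Its day 13 FLAG peak scored 26.9, and the same interval was counted for H2bc6, which is annotated over 37455 bases with a start beside H1f4. H1f1 had a peak in ESCs, in both day 13 cultures, in the day 5 HDAC3-YF culture and in the day 9 FLAG culture, and none in MEFs, the day 5 FLAG or the day 9 HDAC3-YF culture. The 17.5 and 7.75 scored by its day 5 and day 9 peaks were below the medians of 22.5 and 24.2 of those lists. At day 13 it scored 12.0 with FLAG and 14.4 with the mutant, also below the medians of 15.7 and 16.4, unlike the other H1 genes with a peak. H1f6, the testis gene, had no peak in any of the 12 lists.

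The sequences upstream of the H1 genes are printed here because the 5 somatic H1 genes had peaks at day 13 while most core genes had none. Each line gives the 150 bases before the annotated start on the gene's own strand, 5′ to 3′, from RefSeq (GRCm38.p6, the mm10 assembly), all on chromosome 13: H1f1 at chr13:23763518-23763667 (plus strand), H1f2 at chr13:23738657-23738806 (plus), H1f3 at chr13:23554882-23555031 (plus), H1f4 at chr13:23622559-23622708 (minus), H1f5 at chr13:21780626-21780775 (minus) and H1f6 at chr13:23695661-23695810 (plus). Capitals mark 3 motifs on either strand: the TATA box TATAAA, the CCAAT box CCAAT and the AC box AAACACA, a motif known from H1 promoters.
H1f1: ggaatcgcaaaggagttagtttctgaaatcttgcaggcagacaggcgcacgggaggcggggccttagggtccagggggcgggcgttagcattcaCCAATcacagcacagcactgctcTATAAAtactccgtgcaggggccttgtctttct
H1f2: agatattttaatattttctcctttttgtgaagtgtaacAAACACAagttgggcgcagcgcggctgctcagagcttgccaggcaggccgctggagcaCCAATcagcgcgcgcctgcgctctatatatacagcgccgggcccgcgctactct
H1f3: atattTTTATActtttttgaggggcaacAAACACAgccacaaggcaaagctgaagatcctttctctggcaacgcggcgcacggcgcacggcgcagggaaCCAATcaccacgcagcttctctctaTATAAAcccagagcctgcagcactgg
H1f4: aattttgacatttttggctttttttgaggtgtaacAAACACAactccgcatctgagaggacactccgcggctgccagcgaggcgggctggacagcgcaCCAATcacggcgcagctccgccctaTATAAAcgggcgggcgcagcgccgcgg
H1f5: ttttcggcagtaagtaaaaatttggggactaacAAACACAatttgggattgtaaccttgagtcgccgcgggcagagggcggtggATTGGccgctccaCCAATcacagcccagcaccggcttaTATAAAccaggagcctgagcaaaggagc
H1f6: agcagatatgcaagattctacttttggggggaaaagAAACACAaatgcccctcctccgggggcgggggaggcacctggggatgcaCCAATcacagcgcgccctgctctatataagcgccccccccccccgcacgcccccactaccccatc
The CCAAT box was found within 250 bases upstream of 6 of 6 H1 genes, against 36.5% of all 17492 promoters in the table. The AC box was found in 5 of 6 H1 genes and in 5.45% of all promoters, with H1f1 as the H1 gene without it. The testis gene H1f6, which had no peak, carried both boxes, so the presence of these letters did not separate the H1 genes with peaks from the one without.

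H3K27ac peaks at H1 genes lay inside or behind the gene. In the 8 libraries together, 36 pairs of an H1 gene and a peak were counted, and in all 36 the peak centre was downstream of the annotated start, with a median distance of 692 bp and quartiles of 578 and 870 bp. H1 genes are between 725 and 794 bases long, so a typical centre lay near the gene's 3′ end. None of the 36 centres was within 100 bp of the start. For all genes with a peak within 2 kb of the start, the median distance was 143 to 159 bp downstream over the 8 libraries, and 21.7% to 24.6% of the centres were within 100 bp. The 175 pairs at core histone genes had a median of -145 bp (upstream), 46.3% of them downstream and 4.57% within 100 bp. Both groups of histone genes had few peak centres at the start itself. The values for all genes come from a different window, around the start alone, so the shares are not on the same basis. The windows of the histone genes also reach past the far end of the gene and into the neighbouring gene, and a peak between 2 neighbours enters under both.

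**Figure D3:**
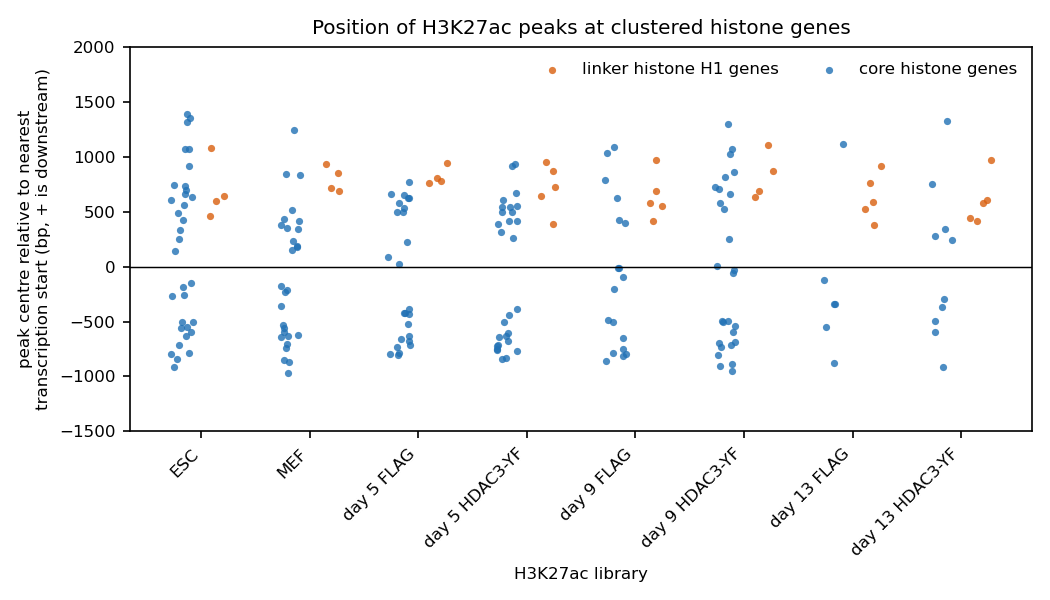
Distance in bp from the nearest annotated start to the centre of each H3K27ac peak counted at H1 and core histone genes, over the 8 H3K27ac libraries (positive values are downstream). The 36 H1 pairs all lie downstream, with a median of 692 bp, and the 175 core pairs lie on both sides, with a median of -145 bp.

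H2A and H2B form the dimers on the outside of the histone octamer. Of the 17 H2A genes, 10 had an H3K27ac peak in ESCs and 8 in MEFs, and over days 5, 9 and 13 the numbers were 7, 5 and 3 with FLAG and 7, 8 and 3 with the mutant. Of the 16 H2B genes, 9 had one in ESCs and 8 in MEFs, and the numbers were 10, 6 and 2 with FLAG and 9, 10 and 4 with the mutant. In both families the FLAG cultures had fewer marked genes at day 9 than at day 5, and the HDAC3-YF cultures did not.

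H3 and H4 form the tetramer at the centre of the octamer. Of the 12 H3 genes, 10 had a peak in ESCs and 8 in MEFs, and over days 5, 9 and 13 the numbers were 8, 6 and 1 with FLAG and 8, 7 and 2 with the mutant. Of the 12 H4 genes, 8 had a peak in ESCs and 8 in MEFs, and the numbers were 5, 3 and 1 with FLAG and 7, 4 and 3 with the mutant. All 4 core families had fewer marked genes at day 13 than at day 5 in both arms. The plot by family shows the 6 H1 genes standing above them at day 13.

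**Figure D4:**
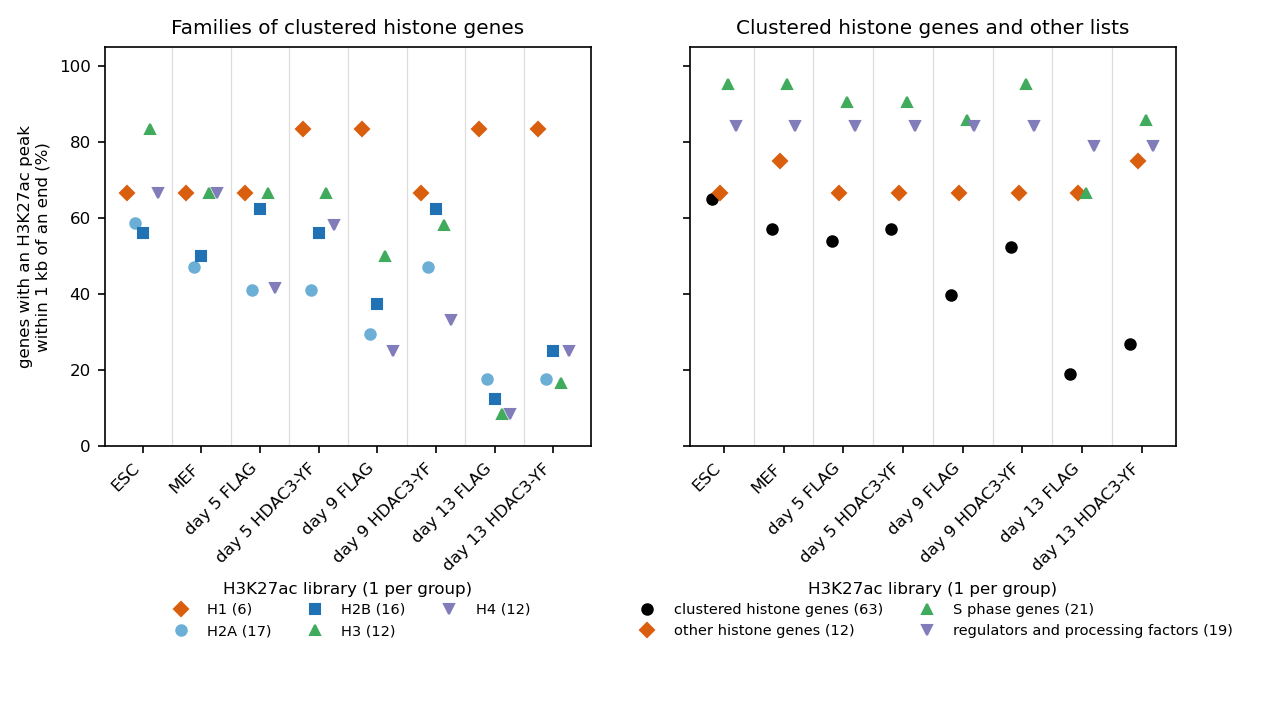
Share of genes with an H3K27ac peak (%) in each of the 8 H3K27ac libraries, by histone family (left) and for the 63 clustered histone genes beside lists of other genes (right), with the number of genes in brackets. At day 13 the H1 genes are above the 4 core families, and the clustered genes are below the other histone genes, the S phase genes and the regulators.

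Many H2A and H2B genes share a promoter in head-to-head pairs, and 9 such pairs had 163 to 280 bases between their starts. H2ac12 and H2bc12 on chromosome 13 shared an H3K27ac peak in 5 of the 8 libraries: ESCs, MEFs, both day 5 cultures and the day 9 HDAC3-YF culture. H2bc13 and H2ac13 shared one in 4 libraries, and H2ac15 with H2bc15 and H2ac11 with H2bc11 in 3 each. None of these 9 pairs had a peak in a day 13 library. Pairs were sought only among the 58 genes with a known strand. H2bc21, whose strand is not given, lies beside H2ac20. It shared a peak with H2ac20 in ESCs and in the day 5, day 9 FLAG and day 13 HDAC3-YF cultures. The pairs H2bc23 and H2ac23, H2bc7 and H2ac7, and H2bc1 and H2ac1 had no peak in any list.

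The 177 bases between H2ac12 and H2bc12 are shown because this pair was the most often marked of those with both strands known. They lie at chr13:22035644-22035820 (GRCm38.p6, plus strand, reading towards H2bc12). Capitals mark CCAAT boxes on either strand and the octamer ATTTGCAT, a motif bound by Oct1 at H2B promoters and also by other POU factors.
H2ac12-H2bc12: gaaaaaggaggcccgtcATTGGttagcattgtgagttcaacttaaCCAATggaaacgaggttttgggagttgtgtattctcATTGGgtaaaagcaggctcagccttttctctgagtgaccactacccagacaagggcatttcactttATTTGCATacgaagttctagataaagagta
The octamer was found upstream of 6 of 17 H2A and 6 of 14 H2B genes and of no H1, H3 or H4 gene, against 1.62% of all promoters. The CCAAT box was found at all 17 H2A and all 14 H2B genes with a promoter in the table, at 8 of 10 H3 genes and at 3 of 11 H4 genes. TATAAA was found at 28 of the 58 histone promoters in the table (48.3%) and in 12.4% of all promoters. A match describes letters in these 250 bases and does not show that a factor was bound.

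The genes fall into 4 groups by position. The chromosome 3 cluster (chr3:96219885-96270192, 10 genes) had H3K27ac peaks at 8 genes in ESCs and 7 in MEFs, and over days 5, 9 and 13 at 7, 8 and 4 with FLAG and at 7 on each day with the mutant. The 31 genes of the distal chromosome 13 group (chr13:23531044-23934913) had peaks at 21 in ESCs and 19 in MEFs, and at 17, 11 and 7 with FLAG and 17, 15 and 8 with the mutant. The day 13 HDAC3-YF culture therefore had as many marked chromosome 3 genes as the day 5 cultures, while fewer chromosome 13 genes were marked. Of these chromosome 3 genes, H3c13 and H2bc18 were counted through a shared peak scoring 7.12, where the list median was 16.4. H2bc21 was counted through a peak shared with H2ac21 and H2ac20. In the FLAG culture those 2 genes had a peak at chr3:96219661-96219860, outside the H2bc21 window.

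The 17 genes of the proximal chromosome 13 group (chr13:21715711-21833475) had peaks at 8 in ESCs and 5 in MEFs, and over days 5, 9 and 13 at 6, 5 and 1 with FLAG and 8, 9 and 2 with the mutant. The 5 genes between these groups (chr13:22035122-22043658) had peaks at 4 in ESCs and 5 in MEFs, and at 4, 1 and 0 with FLAG and 4, 2 and 0 with the mutant. Among the 47 core histone genes of chromosome 13, 3 had a peak in the day 13 FLAG culture (H2bc6, H3c3 and H2bc3) and 5 in the day 13 HDAC3-YF culture. The H2bc6 peak is the one shared with H1f4, and H3c3 and H2bc3 share another.

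The day 5 peaks of the histone genes were followed to later days within each arm. In the FLAG arm, 19 of 34 genes with a day 5 peak had one at day 9 (55.9%, against 94.0% of all genes) and 11 of 34 at day 13 (32.4%, against 89.8%). In the HDAC3-YF arm, 25 of 36 had one at day 9 (69.4%, against 94.0%) and 17 of 36 at day 13 (47.2%, against 91.0%). Over all scores, the histone genes kept fewer of their day 5 peaks than all genes did in both arms.

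Day 5 peaks at histone genes scored low within their lists, with a median of 16.4 in the FLAG culture beside 26.4 for the whole list, and of 18.7 beside 22.5 in the HDAC3-YF culture. The genes were therefore divided by their highest day 5 score. At day 9 in the FLAG arm, 4 of 18 histone genes with a score below 20 had a peak (22.2%, all genes 75.9%), 14 of 14 between 20 and 100 (all genes 98.3%) and 1 of 2 at 100 or more (all genes 99.3%). The 2 genes at 100 or more, H3c3 and H2bc3, shared a single day 5 peak. A day 9 FLAG peak at chr13:23746433-23746632 was counted for H2bc3 and lay just past the 1 kb limit of H3c3. With the mutant the day 9 counts in the same score ranges were 12 of 19 (63.2%, all genes 77.5%), 10 of 14 (71.4%, all genes 98.1%) and 3 of 3 (all genes 99.6%). The lower share of the histone genes was thus not seen in every score range at day 9. At day 13 in the FLAG arm, 0 of 18 histone genes with a score below 20 had a peak, against 67.6% of all genes in that range. Between 20 and 100, 9 of 14 histone genes (64.3%) had one, against 92.7%, and at 100 or more 2 of 2 had one, against 99.1%. In the HDAC3-YF arm the day 13 counts were 4 of 19 (21.1%, all genes 72.2%), 10 of 14 (71.4%, all genes 94.2%) and 3 of 3 (all genes 99.4%). The share of each list at the ceiling of 200 also moved with the day, from 11.9% at day 5 to 1.67% at day 13 in the FLAG arm and from 9.06% to 2.11% in the mutant arm, and its part in the result was not tested.

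Counted gene by gene, 23 of the 63 histone genes had fewer H3K27ac peaks at day 13 than at day 5 with FLAG (36.5%, all genes 4.89%) and 1 had more (1.59%, all genes 5.09%). With HDAC3-YF, 19 had fewer (30.2%, all genes 4.29%) and 0 had more (all genes 7.33%). From day 5 to day 9, 15 had fewer and 7 more with FLAG (all genes 2.97% and 3.99%), and 11 had fewer and 9 more with HDAC3-YF (all genes 2.95% and 4.27%). The median difference was 0 among the histone genes and among all genes in each of these comparisons. H1f1 was the 1 gene with more peaks at day 13 than at day 5 in the FLAG arm.

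Between ESCs and MEFs, 28 histone genes had a peak in both (44.4%, all genes 42.8%), 13 in ESCs only (20.6%, all genes 5.75%), 8 in MEFs only (12.7%, all genes 5.35%) and 14 in neither (22.2%, all genes 46.1%). By number of peaks, 14 genes had more in ESCs (22.2%, all genes 6.78%), 8 had more in MEFs (12.7%, all genes 6.20%) and 41 had equal numbers. Genes with a peak in ESCs and none in MEFs included H2bc21 on chromosome 3 and H2bc14, H4c11, H2ac15, H2bc15, H2ac22, H2ac10 and H3c8 on chromosome 13. For H2bc21 this turned on the window edge. Its ESC peak (chr3:96220039-96220238, score 111.65) lay inside 1 kb, and a MEF peak beside it (chr3:96219934-96220133, score 154.37) lay outside. Within 2.5 kb H2bc21 was marked in all 8 libraries. The 8 genes with a peak in MEFs and none in ESCs within 1 kb of a gene end were H2bc13, H3c11, H2bc11, H2bc6, H1f4, H2ac6, H4c3 and H2ac4. For some of them an ESC peak lay past that limit, such as chr13:21717383-21717582 near H2bc13 and chr13:23684933-23685132 near H2ac6. For H2bc6 it turned on the use of gene ends. Around its annotated starts, H2bc6 was marked in all 8 libraries, ESCs included. Of the 28 genes marked in both, 16 had no peak in either day 13 culture (57.1%, against 5.96% of all genes marked in both). H4c12 and H2bc22 were the 2 genes marked in OSKM cultures and in neither ESCs nor MEFs within 1 kb (3.17%, all genes 3.15%). An ESC peak counted for H2ac22 (chr13:21786233-21786432) lay just past the 1 kb limit of H2bc22. H4c12 was counted through 1 peak, scoring 10.03 in the day 5 HDAC3-YF list, whose median was 22.5.

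HDAC3-YF was compared with FLAG within each day. At day 5, 7 of the 63 histone genes had more H3K27ac peaks in the mutant arm (11.1%, all genes 2.51%), 5 had fewer (7.94%, all genes 3.92%) and 51 had equal numbers. At day 9, 15 had more (23.8%, all genes 3.02%) and 7 fewer (11.1%, all genes 4.10%). At day 13, 5 had more (7.94%, all genes 6.05%) and 0 fewer (all genes 4.66%). The median difference was 0 at each day, and histone genes differed between the arms more often than all genes at days 5 and 9, in both directions. These genes are not independent, as neighbours such as H2ac12 and H2bc12 or H2ac10 and H3c8 entered through a shared peak. Day 9 peaks at histone genes scored low, with medians of 15.1 with FLAG and 13.9 with the mutant, against 24.2 and 25.1 for the lists.

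At day 13 the 12 genes marked with FLAG were all marked with HDAC3-YF, namely H1f1 to H1f5, H2bc6, H3c3, H2bc3, H2ac21, H2ac20, H2ac18 and H4c14. The 5 genes marked with HDAC3-YF only were H4c11 and H4c8 on chromosome 13 and H2bc21, H3c13 and H2bc18 on chromosome 3, and 46 genes were marked in neither. Over all genes 38.4% were marked in both cultures, 4.16% with FLAG only, 5.55% with HDAC3-YF only and 51.9% in neither. In the HDAC3-YF list, whose median was 16.4, the H4c11 peak scored 7.25, the H4c8 peak 7.23 and the peak counted for both H3c13 and H2bc18 7.12, while the H2bc21 peak scored 16.99. That H2bc21 peak was also counted for H2ac21 and H2ac20, whose FLAG peak lay outside the H2bc21 window.

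Across the 3 days, H3c13, H2bc22 and H4c6 had more peaks in the mutant arm at 2 days and fewer at none, and no histone gene had fewer at 2 or more days. H3c13, an H3 gene at chr3:96268654-96269155, had 1 peak in the day 9 FLAG culture and 2 in its mutant partner, 0 and 1 in the pair of day 13, and 1 in both day 5 cultures. H2bc22 and H4c6 had 0 peaks in the FLAG and 1 in the mutant cultures of days 5 and 9, and 0 in both day 13 cultures. The H2bc22 peaks of these days lay at different sites. That of day 5 (chr13:21788302-21788501) was centred at 914 bp from the start. That of day 9 (chr13:21786487-21786686) was centred at -901 bp and was also counted for H2ac22. The H4c6 peaks scored 11.4 at day 5 and 9.91 at day 9, and the H2bc22 peaks 14.8 and 6.89, all below the medians of 22.5 and 25.1. Of the other genes, 16 had more peaks in the mutant arm at 1 day (all genes 6.59%), 7 had fewer at 1 day (6.40%), 5 differed in opposite directions (2.53%) and 32 did not differ at any day (81.8%). Among all genes 1.08% had more at 2 or more days and 1.60% fewer.

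Peaks of the co-repressors at histone genes were few. In ESCs, NCoR had a peak at 0 of the 63 genes, against 11.3% of all genes, and SMRT at 1, against 12.6%. In OSKM cultures at day 9, NCoR had a peak at 3 genes, against 20.0% of all genes, and SMRT at 1, against 18.2%. For NCoR or SMRT together, 1 gene was marked in ESCs (1.59%, all genes 14.2%) and 3 at day 9 (4.76%, all genes 21.5%). Of the 51 histone genes with an H3K27ac peak in at least 1 library, 47 had no co-repressor peak (92.2%, against 52.5% of all genes with an H3K27ac peak).

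The day 9 NCoR and SMRT lists held the same interval, with the same score of 0.909, at H2ac18, an H2A gene at chr3:96245497-96246052 on the plus strand. These scores come from 1 joint list per cell population, so the shared position cannot be read as separate peaks that coincide. The interval, chr3:96245092-96245291, has its centre at -305 bp from the start (upstream), and H2ac18 had an H3K27ac peak in each of the 8 libraries. Another day 9 NCoR interval, chr3:96269719-96269918, has its centre 119 bp after the start of H2bc18 and was also counted for H3c13. The ESC SMRT interval, chr13:23583306-23583505, lay beyond the annotated 3′ end of H2bc6 and 2564 bp from the nearest start of that gene. The 150 bases before H2ac18 (chr3:96245347-96245496, GRCm38.p6, plus strand) are shown because the interval held in both co-repressor lists lay just upstream of them. CCAAT boxes on either strand are in capitals.
H2ac18: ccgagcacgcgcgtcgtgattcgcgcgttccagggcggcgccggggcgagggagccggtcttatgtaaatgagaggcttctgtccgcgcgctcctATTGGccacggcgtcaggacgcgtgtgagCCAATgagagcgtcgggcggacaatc
H2ac18 and its neighbour H2ac19 are near copies, and H2ac19 had no peak in any list. Over the best ungapped match of the 250 bases upstream of each gene, 199 of 210 bases were identical (94.8%). Reads from near-identical copies can be placed on either copy or left out, and the sources used here do not say which, so the values of both genes are uncertain.

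Of 1653 pairs of histone genes with a promoter in the table, 4 had upstream bases at least 90% identical, and the median pair had 32.7%. H4c17 and H4c18 were identical over 249 of 249 bases and had no peak in any list. H3c15 and H3c14 were identical at 234 of 235 bases, with H3K27ac peaks in 4 libraries for H3c15 and in 0 for H3c14. H4c11 and H4c12 were identical at 226 of 236 bases, with peaks in 4 libraries and in 1. In 3 of these 4 pairs 1 copy thus had more marked libraries than the other, and 4 of the 8 genes had no H3K27ac peak. The bases before H4c17 (chr13:21811596-21811745, plus strand) and H4c18 (chr13:21832198-21832347, minus strand) show such a pair, shifted by 1 base, with TATAAA in capitals.
H4c17: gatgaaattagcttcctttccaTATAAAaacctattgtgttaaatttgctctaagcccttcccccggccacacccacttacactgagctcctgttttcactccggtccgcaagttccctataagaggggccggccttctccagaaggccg
H4c18: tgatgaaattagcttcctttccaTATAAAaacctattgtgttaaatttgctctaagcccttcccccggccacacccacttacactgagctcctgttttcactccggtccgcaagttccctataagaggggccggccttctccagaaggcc
The 12 genes with no peak in any of the 12 lists included 4 of these copies, H2ac19, H3c14, H4c17 and H4c18. The others were the testis genes H1f6, H2bc1 and H2ac1 and the genes H2bc23, H2ac23, H2ac24, H2bc7 and H2ac7.

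Other genes of the histone supply were counted in the same way. Of 12 histone genes outside the clusters, such as H2az1, H3f3a and H2ax, whose proteins are also made outside DNA replication, 8 had an H3K27ac peak in ESCs, 9 in MEFs, 8 in each OSKM library up to the day 13 FLAG culture and 9 in the day 13 HDAC3-YF culture. Of 19 regulators and processing factors of the clustered genes, such as Npat and Slbp, 16 had a peak in ESCs, in MEFs and in each day 5 and day 9 culture, and 15 in both day 13 cultures. The clustered genes went from 34 and 36 marked genes at day 5 to 12 and 17 at day 13, while these lists changed by at most 1 gene.

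Of 21 genes of S phase, the stage of DNA replication, 20 had a peak in ESCs and 20 in MEFs, and over days 5, 9 and 13 the numbers were 19, 18 and 14 with FLAG and 19, 20 and 18 with the mutant. Pcna, the sliding clamp of DNA polymerase, had a peak in ESCs, MEFs and each day 5 and day 9 culture and in neither day 13 culture. Mcm3 also had none in either day 13 culture, and none in the day 5 HDAC3-YF culture. Cdc6, Chaf1b, Ccne1 and Asf1b had none in the day 13 FLAG culture and 1 in the day 13 HDAC3-YF culture. Of these, Cdc6 already had none in the day 9 FLAG culture, and Asf1b none in the day 5 and day 9 FLAG cultures. The part of this list in the counts at histone genes was not tested. The NCoR and SMRT lists of day 9 each had a peak at 6 of the 12 histone genes outside the clusters, against 3 and 1 of the 63 clustered genes.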

How the data were processed

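ChIP-seq peak lists were analysed for 12 of 13 libraries, 1 per group. The submitters' processing notes name Bowtie2 2.2.0, MACS 1.4 and the mm10 build, without settings. The authors deposited a score with each peak: for H3K27ac its scale is not stated, and for NCoR and SMRT it is signed and comes from 1 joint list per cell population, so it is not a height. A list per library was deposited, depth is unknown, and intervals were brought to 200 bp by a step not given in the sources used here. All H3K27ac starts lie on a 50 bp grid within a chromosome.

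Peaks were matched to RefSeq GRCm38.p6 genes with pandas 2.3.3 under Python 3.11.15; strand was available for 58 of the 63 genes. A gene was counted when a peak centre lay within 1 kb of either end, with all 21887 protein-coding genes counted alike. Differences are differences in peak number. Named genes were those with a co-repressor peak, the largest ESC to MEF differences (up to 8 each way), a difference between the arms in 1 direction at 2 or more days and no opposite one, peaks in all 8 H3K27ac lists, or none in 12. The lists were other histone genes, regulators and processing factors, S phase genes, and pluripotent and fibroblast markers. The genes and lists were chosen with earlier results of these data known. The counting was tested on simulated data. Alternatives were the window, the ends used, peak placement, the gene set, the score limit and merged peaks. The division by day 5 score, and the sets without H1 genes or near copies, were chosen after seeing the data.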

Additional observations from a re-analysis of the deposited data

Results flagged for a closer look

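The difference between HDAC3-YF and FLAG had opposite signs at different days in 5 histone genes (2.53% of all genes showed this). H2bc14, H2ac15 and H2bc15 had 1 peak in the FLAG culture of day 5 and 0 in its mutant partner, with 0 and 1 in the pair of day 9. H1f1 had the reverse: 0 and 1 in the first pair, 1 and 0 in the second. H2bc21 had 1 and 0 in the pair of day 9 and 0 and 1 in that of day 13. Within 2.5 kb H2bc21 was marked in all 8 H3K27ac libraries. Each value comes from 1 library, so the difference between days was not tested.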

How the results depend on the processing

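No paired analysis was possible because each group has 1 library and the labels give no replicate numbers; leaving out a replicate was not possible either. Depth is unknown, so a gene without a peak may hold a signal below the limit of its list. Of the counts over all histone genes, 107 alternatives stayed within 1.5 times the value reported, 36 did not and 1 changed sign. For single named genes the value was the number of H3K27ac libraries with a peak, out of 8, and the rule was looser. There, 345 alternatives lay within the 95% Wilson confidence interval of the value reported, and 42 did not. With the 50% highest-scoring peaks, the marked genes numbered 23 in ESCs, 15 in MEFs, 14, 8 and 6 over days 5, 9 and 13 with FLAG and 16, 12 and 9 with the mutant; the excess of HDAC3-YF over FLAG (genes with more minus genes with fewer peaks) was 4 at day 9 and 3 at day 13. With 14251 peaks from each list, 25 were marked in ESCs and 15 in MEFs, the excess of ESCs over MEFs rose from 6 to 10, and the day 5 excess of HDAC3-YF went from 2 to -1. With a window of 0.5 kb, 24 were marked in ESCs, 23 at day 5 with HDAC3-YF, and 15 and 20 at day 9; the excess was 0 for ESCs over MEFs, 0 at day 5 and 5 at day 9. With 2.5 kb, SMRT marked 2 genes in ESCs and 2 at day 9, and the excess was 4 at day 5 and 5 at day 9. Around starts only, ESC SMRT marked 0, and the excess was 1 for ESCs over MEFs, 4 at day 5 and 3 at day 13. Adding 4 genes with older Hist symbols gave 1 ESC NCoR, 2 ESC SMRT and 2 day 9 SMRT genes; requiring both co-repressors gave 0 in ESCs and 1 at day 9. Without H1 genes 7 were marked at day 13 with FLAG and the day 5 excess was 1; it was also 1 without near copies. In each window, each score limit and starts only, fewer histone genes were marked at day 13 than at day 5 in both arms: with 0.5 kb the share went from 36.5% to 14.3% with FLAG and from 36.5% to 20.6% with HDAC3-YF, and with the 50% highest-scoring peaks from 22.2% to 9.52% and from 25.4% to 14.3%.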
